A study of Mus musculus with 171 samples.

Results

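The comparison describes the inner cell mass (ICM) of mouse blastocysts at embryonic day 3.5 (E3.5) in embryos labelled Stat3 -/- (MUT) and Stat3 +/+ (WT). Libraries were chosen by the stage and genotype in their titles, and 119 of the 171 single-cell RNA-seq libraries qualified. They comprise 55 cells of 5 MUT embryos (numbers 2, 10, 18, 23 and 24) and 64 cells of 5 WT embryos (numbers 13, 16, 20, 21 and 22). The remaining 52 libraries are epiblast (EPI) and primitive endoderm (PrE) cells at E3.75, from 4 MUT and 3 WT embryos, and serve only for reference below. No treatment is named, and the sources used here give no strain, litter or kind of Stat3 allele. Raw read counts were summed over the cells of an embryo, so that the embryo is the replicate and n = 5 in each group. Levels are CPM, counts scaled to a common library total, after TMM scaling, a correction for library composition, and ± is the SD over embryos. A sum by itself does not separate fewer cells of a type from less RNA per cell, and for some genes the share of cells with reads is given beside it.

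STAT3 is a transcription factor that cytokines of the LIF and IL6 family activate through the gp130 receptor and JAK kinases, and it induces its own feedback inhibitor SOCS3. In mouse embryonic stem cells it maintains the naive state, partly through targets such as Tfcp2l1 and Klf4. The ICM at this stage holds the precursors of the epiblast, which forms the fetus, and of the primitive endoderm, which lines the blastocoel and forms the yolk sac endoderm. FGF4 made by epiblast precursors directs their neighbours towards the endoderm.

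The embryos differed in depth, in the number of cells and in sex. Summed depth ran from 8117787 to 88167705 counts in MUT and from 28675202 to 122331780 in WT, from 4 to 19 and from 7 to 17 cells per embryo. Reads of Xist and of Y-linked genes marked MUT 23 and WT 13, 16 and 20 as male and the other 6 embryos as female, and 7 cells (2 MUT, 5 WT) held both kinds of read. The first principal component (22.1% of the variance) set MUT 23, the shallowest embryo, apart, and neither it nor the second (13.7%) separated the genotypes. The median SD of log2 CPM over genes was 1.55 in MUT and 1.27 in WT, and 7769 of 12270 genes had the larger SD in MUT. Mitochondrial mRNAs took 3.15 ± 0.972% of counts in the median cell of a MUT embryo and 4.86 ± 0.921% in WT (exact two-sided permutation test, p = 0.0397, adjusted over 5 quality values 0.198). The median number of genes detected per cell was 8898 ± 927 and 8829 ± 157.

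The ICM identity of the cells was checked with marker sums. The pan-ICM genes Pou5f1, Sall4, Dppa5a and Zfp42 summed to 1597 to 10142 CPM in MUT and 3837 to 15701 CPM in WT. Dppa5a alone gave most of each sum, at 850 to 9234 CPM in MUT and 2573 to 14830 CPM in WT. Trophectoderm markers summed to 140 to 497 CPM and 215 to 454 CPM. Of 6 granulosa and cumulus cell markers, 1 was at 0 in every MUT embryo and 4 in every WT embryo, and the sums were 5.91 to 66.4 CPM and 1.18 to 52.7 CPM. Nearly all of these sums was Amhr2, and no other marker of the 6 exceeded 0.890 CPM in any embryo. The 8 epiblast and naive markers summed to 299 to 813 CPM in MUT and 1852 to 2500 CPM in WT. Without Tdgf1, which is among them, the sums were 215 to 328 CPM and 424 to 1196 CPM. The 8 primitive endoderm markers ranged from 65.1 CPM (MUT 23) to 1688 CPM (MUT 10), against 218 to 596 CPM in WT. The part that these differences in marker levels, sex and depth have in the results below was not tested, beyond the fits named beside a result (without an embryo, with sex as a covariate, in female embryos alone, or in the cells of 1 title letter). The letter H is the one title letter with cells in all 10 embryos, and what the letters stand for is not given.

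Stat3 itself (chromosome 11, 100885098 to 100939540, minus strand, GRCm38) was read at 9.90, 11.1, 6.18, 0.119 and 0.947 CPM in MUT embryos 2, 10, 18, 23 and 24. The WT embryos 13, 16, 20, 21 and 22 gave 97.6, 49.8, 40.5, 80.8 and 53.3 CPM. Every MUT embryo lay below every WT embryo, with MUT 23 and MUT 24 nearly devoid of reads and the other MUT embryos holding some. The log2 difference was -3.50 (SE 0.93), and edgeR's quasi-likelihood test with Benjamini-Hochberg adjustment over all genes gave an adjusted p of 0.684. At least 1 read was counted in 45 of 55 MUT cells and 63 of 64 WT cells. Stat5a, on the other strand, had a summed count of 0.205 of that of Stat3. The 2 genes overlap only from 100885098 to 100885169, at the 3′ end of both. Reads of the pair may be mixed in that stretch where the counting ignored strand, which was not tested. MUT 24 held 2690 counts of Stat5a and 29 of Stat3.

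STAT dimers bind the palindromic element TTCNNNGAA, which reads the same on both strands, and promoter windows (250 bases before to 50 after the start) from RefSeq, build GRCm38.p6, were searched for it. Of 18 tested genes of the STAT3 target list, 14 had a window and 4 of these held the element, Bcl6, Icam1, Sgk1 and Socs3 (28.6%). Of all genes tested, 679 of 8708 windows held it (7.80%). Among the 15 genes lower and 13 higher in MUT that are named below by rule, 1 of 12 windows (Tmem9) and 2 of 11 (Gga2 and Map2k4) held it. The matches of Socs3, Icam1, Sgk1 and the 3 named genes are shown, and the 4 matches of Bcl6 are not, with 10 bases on either side, 5′ to 3′ on the strand of the gene, with the element in capitals.
Socs3: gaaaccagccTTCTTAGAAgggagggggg
Icam1: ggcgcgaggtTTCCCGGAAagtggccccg
Sgk1: gaaaaaccaaTTCAAAGAAccctcccaag
Tmem9: ctaaaatgctTTCTCTGAAacagtaagat
Gga2: ccagtatcttTTCTGGGAAccctgcttct
Map2k4: ggttctgaggTTCAGAGAAgggagttcta
These 29-base stretches lie at chr11:117969502-117969530 (Socs3, minus strand), chr9:21015888-21015916 (Icam1, plus), chr10:21881951-21881979 (Sgk1, plus), chr1:136017752-136017780 (Tmem9, plus), chr7:122021379-122021407 (Gga2, minus) and chr11:65788562-65788590 (Map2k4, minus). The 9-base elements begin 154, 42, 223, 239, 199 and 221 bases before the RefSeq transcript start of their window, which may lie inside the full span of the gene. A match describes these letters and says nothing of binding.

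No gene passed an adjusted p of 0.05 in edgeR's quasi-likelihood test (0 of 12270 genes tested, 0%). At an unadjusted p under 0.05, 440 genes (3.59%) were lower in MUT and 375 (3.06%) were higher. The 5 MUT embryos lay entirely below the 5 WT embryos for 125 genes (1.02%) and entirely above them for 72 (0.587%). Other tools made other calls, 505 genes with DESeq2 and 2 with limma-trend. Over all genes the median log2 difference was -0.05, and 52.4% of genes were lower in MUT. These shares are the background against which the gene groups below are read.

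The direction of the difference varied with the level of a gene. Of 1787 genes with a mean of at least 100 CPM, 1237 were lower in MUT (69.2%, median log2 difference -0.26), and 171 of them (9.57%) had an unadjusted p under 0.05 in that direction against 42 (2.35%) in the other. Of 10483 genes below 100 CPM, 5188 were lower (49.5%, median 0.01). Among the 257 genes at or above 500 CPM the share lower was 76.3%. The share at or above 100 CPM ran from 59.4% (without MUT 10) to 77.2% (limma-voom with embryo weights) over the alternative fits. For lists with many abundant genes, the count at or above 100 CPM is therefore given below, to be read beside 69.2% rather than 52.4%.

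**Figure D1:**
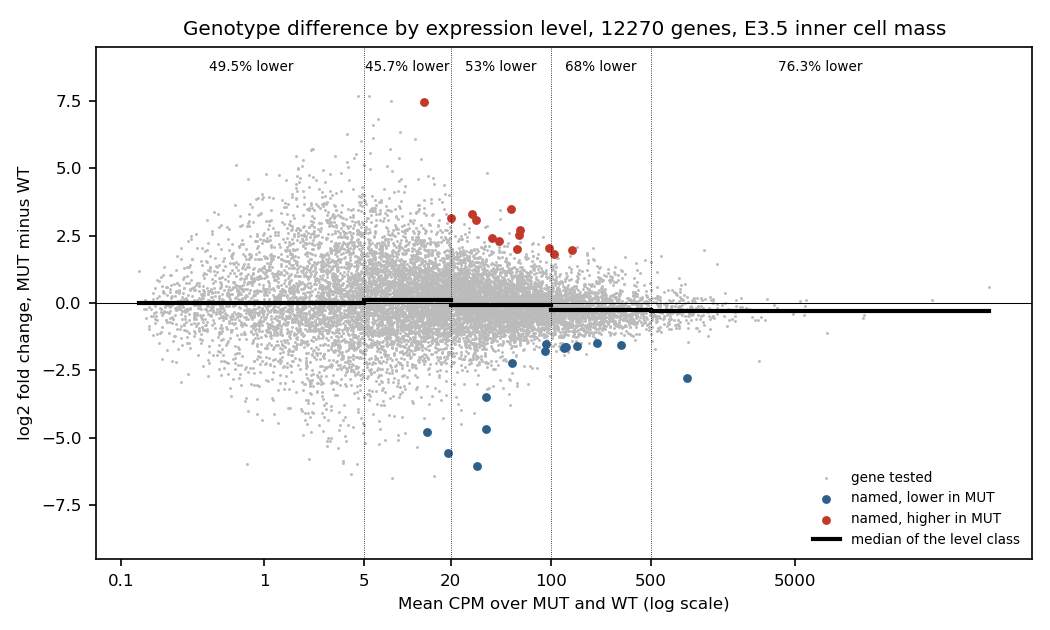
Log2 difference between MUT and WT (vertical axis) against the mean level in CPM (horizontal log axis) for the 12270 genes tested, with the median and the percentage of genes lower in MUT for each class of level. The share of genes lower in MUT is 49.5% under 5 CPM, 45.7% from 5 to 20 CPM and 76.3% at or above 500 CPM.

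The genes named by rule had an unadjusted p under 0.05, groups of embryos that did not overlap, a mean of at least 20 CPM in 1 group and 1 direction in all 10 fits without an embryo. That rule held for 96 genes lower and 36 genes higher in MUT, of which the 15 with the smallest p in each direction were taken, and 13 of the 15 higher genes are reported. Since the rule chose them on this contrast, their separation describes them and supports nothing further.

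Tdgf1, or Cripto, a co-receptor for Nodal (chromosome 9, 110939603 to 110946158, minus strand), had the smallest p among the genes lower in MUT. Its levels were 213, 84.3, 142, 485 and 194 CPM in MUT embryos 2, 10, 18, 23 and 24 and 1305, 1800, 1839, 1428 and 1397 CPM in the WT embryos. The groups stood far apart, with MUT 23 the highest of the MUT embryos. The log2 difference was -2.80 (SE 0.44, adjusted p = 0.0839 by edgeR's quasi-likelihood test), and every cell of both genotypes held Tdgf1 reads, with a median of 93.5 CPM over MUT cells and 1421 CPM over WT cells.

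Cpe, a carboxypeptidase that trims prohormones, was close to absent in MUT, at 0.239 to 1.71 CPM against 7.03 to 178 CPM in WT (log2 difference -6.04, SE 1.09, adjusted p = 0.189). WT 20 stood above the other WT embryos, and the median over all WT cells was 3.38 CPM. Dppa1, one of the developmental pluripotency-associated genes, showed 0, 0.422, 0.389, 3.21 and 0.163 CPM in MUT embryos 2, 10, 18, 23 and 24 and 16.7, 34.0, 66.6, 47.1 and 22.5 CPM in WT embryos 13, 16, 20, 21 and 22. It was counted in 18 of 55 MUT cells and 39 of 64 WT cells (log2 difference -5.55, SE 1.24, adjusted p = 0.435). The median over WT cells was 0.426 CPM for Dppa1, far below the values of the WT embryos. Mamdc2 was similarly sparse in MUT, at 0 to 2.54 CPM, against 4.04 to 58.9 CPM in WT, with a median of 0.2 CPM over WT cells. For Usp25, a ubiquitin protease, the MUT embryos gave 0.119 to 4.79 CPM and the WT embryos 6.46 to 257 CPM. The top value was that of WT 22, whose median cell had 0.313 CPM.

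The other genes lower in MUT were expressed in both groups. Lcp1, the actin-bundling L-plastin, averaged 18.9 ± 8.78 CPM in MUT and 87.7 ± 34.4 CPM in WT. Gmps, which makes GMP in purine synthesis, averaged 111 ± 38.9 CPM and 307 ± 55.7 CPM. Zc3hc1, a nuclear pore basket protein, averaged 61.3 ± 14.8 CPM and 190 ± 28.8 CPM (log2 difference -1.63, SE 0.36, adjusted p = 0.435). Tmed9, a cargo receptor of the early secretory pathway, averaged 40.8 ± 9.21 CPM in MUT and 142 ± 71.9 CPM in WT, and the small GTPase Rab18 averaged 155 ± 81.3 and 460 ± 96.1 CPM. Actr10, a dynactin subunit, averaged 61.9 ± 22.7 and 193 ± 84.7 CPM. Tmem9, Bccip (a BRCA2-interacting protein) and Gemin6 (of the SMN complex) had log2 differences of -1.54, -1.60 and -1.66, and WT 16 stood above the other WT embryos for Gemin6 at 421 CPM.

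Qsox2, a sulfhydryl oxidase that forms disulfide bonds (chromosome 2, 26208637 to 26237525, minus strand), had the smallest p of all genes. It was read at 41.2, 36.4, 13.5, 23.5 and 13.9 CPM in MUT embryos 2, 10, 18, 23 and 24. In WT embryos 13, 16, 20, 21 and 22 it was read at 0.119, 0.0426, 0.288, 0.0824 and 0.186 CPM, from 3, 5, 19, 9 and 10 counts. WT embryos were thus almost without reads while each MUT embryo had them. On the log2 scale the groups differed by 7.47 (SE 1.11, adjusted p = 0.0745 by edgeR's quasi-likelihood test), and reads were found in 36 of 55 MUT cells and 16 of 64 WT cells. The median over cells was 0.657 CPM in MUT and 0 in WT, and it was 0 within MUT 18 and MUT 24.

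Rcn2, a calcium-binding protein of the endoplasmic reticulum (chromosome 9, 56041845 to 56061882, plus strand), was higher in MUT. Its MUT values were 121, 103, 90.7, 96.0 and 95.8 CPM, and its WT values were 14.8, 12.2, 14.7, 33.3 and 13.4 CPM, in the same order of embryos. The MUT embryos lay within 90.7 to 121 CPM, and WT 21 stood above the other WT embryos. For Rcn2 the log2 difference was 2.52 (SE 0.48, adjusted p = 0.236 by edgeR). Ppm1g, a serine/threonine phosphatase, averaged 155 ± 44.4 CPM in MUT and 37.6 ± 13.3 CPM in WT.

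Transcription regulators and enzymes followed. Lmo2, a LIM-domain cofactor known from blood development, averaged 50.8 ± 33.0 and 5.14 ± 2.81 CPM, its lowest MUT value (10.2 CPM, MUT 23) being just above its highest WT value (9.49 CPM, WT 21). Map2k4, a kinase that activates JNK, averaged 72.4 ± 33.2 and 14.5 ± 10.8 CPM. Letm1, a cation exchanger of the inner mitochondrial membrane, averaged 65.7 ± 26.6 and 12.3 ± 11.6 CPM. The remaining higher genes were Imp3 (of the nucleolar U3 complex), Cd24a (a surface glycoprotein), Gga2 (a trans-Golgi adaptor), Rab5if, Ivns1abp, Spryd7 and 2210016F16Rik, with log2 differences from 1.84 (Gga2) to 3.51 (2210016F16Rik). MUT 23, the male and shallowest MUT embryo, had the highest value for Imp3, 2210016F16Rik, Map2k4 and Letm1. Of the 28 named genes, 12 overlap another gene, and no neighbour reached a summed count above 0.5 of that of the named gene.

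**Figure D2:**
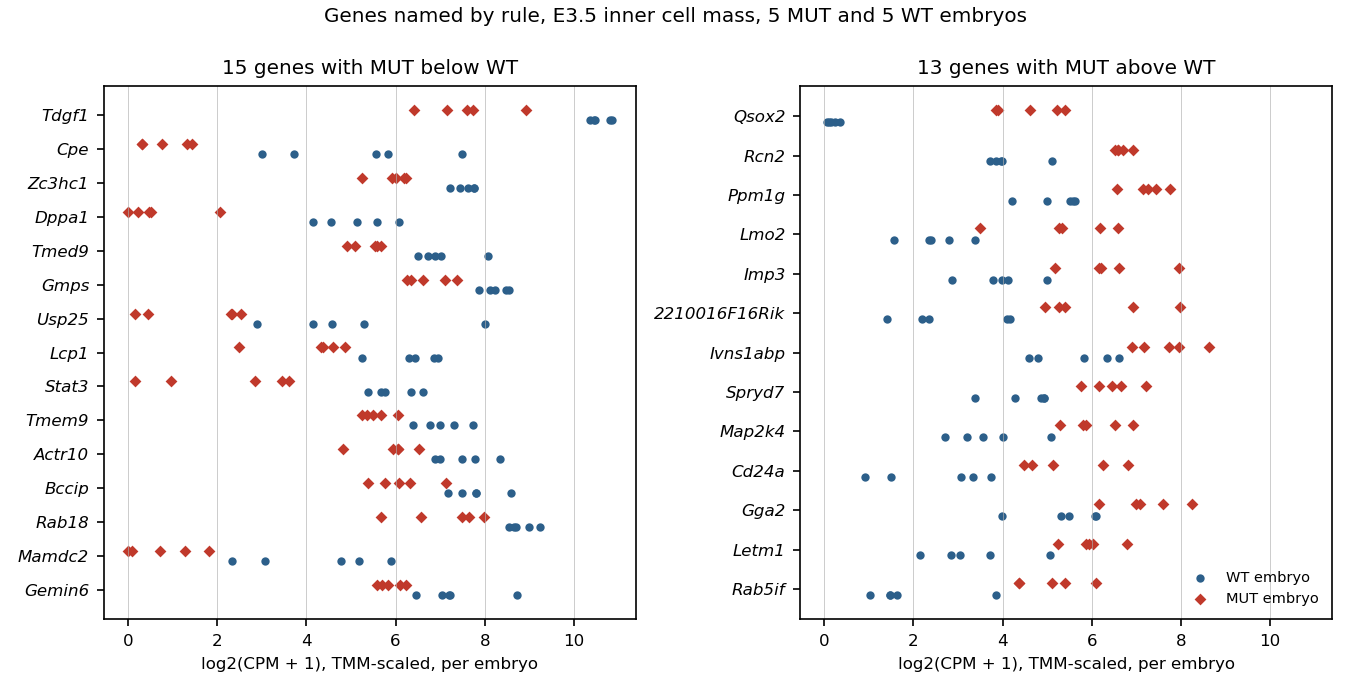
Levels in each E3.5 embryo, as log2(CPM + 1), of the 15 genes lower and the 13 genes higher in MUT that are named; each point is 1 embryo. For Qsox2 the WT embryos lie at 0.0426 to 0.288 CPM and the MUT embryos at 13.5 to 41.2 CPM.

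The same genes were read in the E3.75 cells, where each embryo and lineage is a sum of 1 to 8 cells and all 4 MUT embryos were male. The title letters are A to C in these cells and D to H at E3.5, so that stage and letter cannot be told apart. At E3.75 the letter B occurs only in MUT, C only in WT and A in both. No gene had a genotype difference in the E3.5 ICM that differed from that in EPI (0 of 15756 genes, 0%) or in PrE (0 of 15614, 0%) at an adjusted p of 0.05 by edgeR's quasi-likelihood test. At an unadjusted p under 0.05 there were 1458 and 1436 such genes, and DESeq2 called 621 and 593. Of the 13 named genes higher in MUT at E3.5, 8 were higher in MUT EPI and 6 in MUT PrE, with median log2 differences of 0.15 and -0.02 beside 0.04 and 0.03 for all genes. Of these 13, Lmo2 and Cd24a lay above WT without overlap in EPI, where 2.2% of all genes tested did, and none did in PrE, where 3.43% of genes did.

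Of the 15 genes lower in MUT at E3.5, 11 of 14 tested were lower in EPI and 7 of 12 in PrE (medians -0.46 and -0.36), beside 47.5% and 48.3% of all genes. Groups without overlap and MUT below WT were found for 2 of these genes in each lineage, beside 5.42% of all genes in EPI and 3.29% in PrE. Stat3 lay below WT without overlap in both lineages, at 0.0322 to 28.8 CPM against 92.9 to 178 CPM in EPI and 10.3 to 22.4 CPM against 26.4 to 145 CPM in PrE. Lcp1 was read at 19.9, 14.7, 14.2 and 6.22 CPM in the MUT EPI and at 161, 220 and 143 CPM in the WT EPI. The EPI groups were well apart, and the log2 difference was -3.67 (SE 0.44, adjusted p = 0.325 by edgeR). Gemin6 lay below WT in PrE. Bccip went the other way in EPI, at 198 to 278 CPM in MUT and 122 to 185 CPM in WT. For Tdgf1 the EPI groups overlapped, at 326 to 1657 CPM in MUT and 1124 to 1718 CPM in WT, and the EPI log2 difference was -0.60 (SE 0.46), smaller than at E3.5 by 2.18 (SE 0.66, adjusted p = 0.231 for the interaction by edgeR). In PrE, Tdgf1 was read at 2.47 to 99.2 CPM in MUT and 50.3 to 1106 CPM in WT, with a log2 difference of -3.87 (SE 1.35). The PrE difference was larger than that of the ICM by 1.03 (SE 1.16, adjusted p = 0.912 for the interaction by edgeR).

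The levels of the higher genes in WT cells differed between the E3.5 and the E3.75 libraries, which share no title letter. Of the 13 genes, 11 had a WT EPI mean and 12 a WT PrE mean at E3.75 above every WT ICM embryo at E3.5, against 23.8% and 24.3% of all genes tested (CPM without TMM scaling). Of the 15 lower genes, 7 had a WT EPI mean and 5 a WT PrE mean below every WT ICM embryo, against 7.51% and 11.3% of all genes. The rule chose these genes partly on the same WT ICM values, so the counts describe where the E3.5 levels stand and carry no test.

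**Figure D3:**
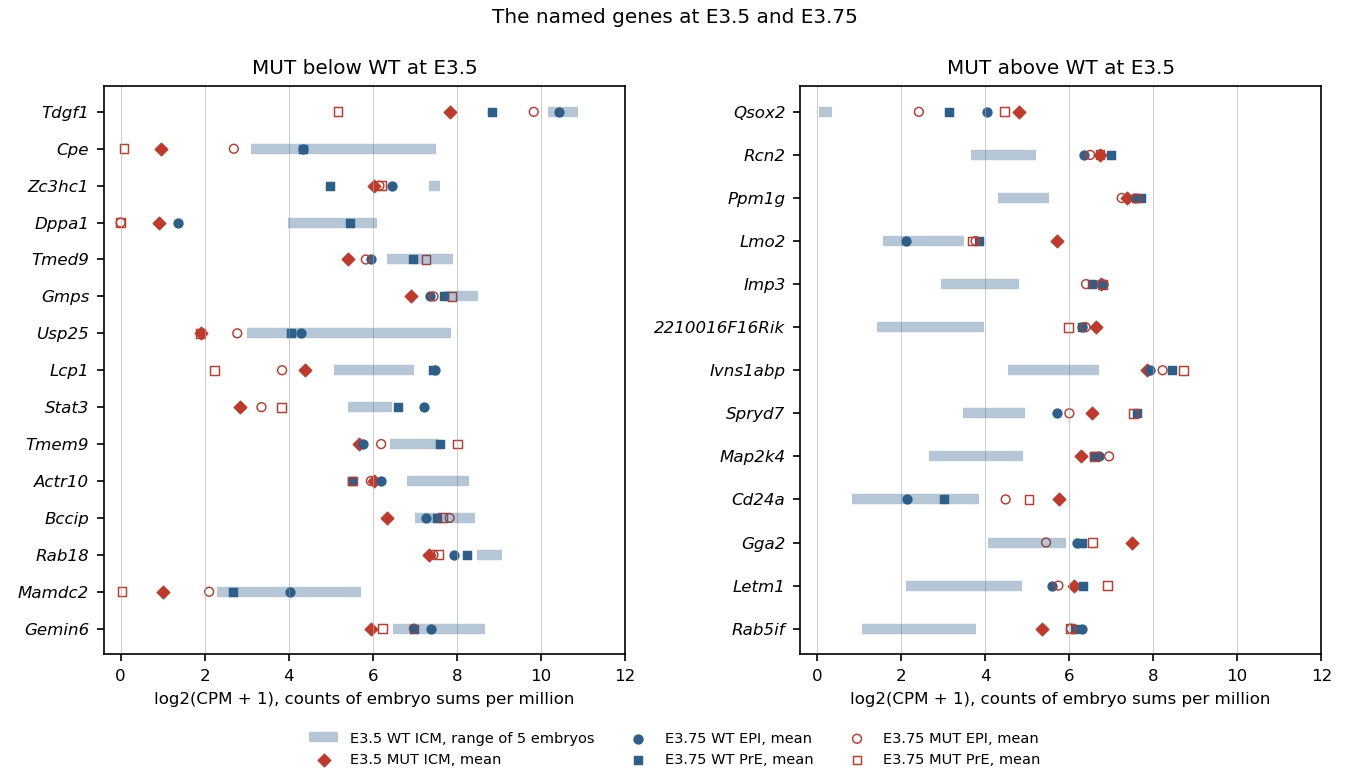
Mean levels, as log2(CPM + 1), of the 28 named genes in the E3.5 MUT ICM and in E3.75 EPI and PrE of both genotypes, beside the range of the WT ICM embryos. For 11 of the 13 higher genes the WT EPI mean lies above the whole WT ICM range.

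Some genes stand in more than 1 list, so the lists are not independent of each other. Klf4, Klf5 and Tfcp2l1 are both STAT3 targets and naive markers, and Dppa3, Dppa4 and Dppa5a are both naive markers and Dppa genes. The lists of the STAT3 pathway are described first, which is not a ranking. Of 18 tested STAT3 targets, 14 were lower in MUT, with a median log2 difference of -0.89 beside -0.05 for all genes, 3 were lower and 1 higher at an unadjusted p under 0.05, and no member had separate groups. The list's median stayed below 0 in all 21 alternative fits. Icam1, an adhesion receptor, was read at 0.639, 8.41, 12.5, 24.8 and 0.196 CPM in MUT and 49.1, 60.1, 91.3, 19.1 and 193 CPM in WT, so that only WT 21 reached into the MUT range. Its log2 difference was -3.15 (SE 1.05, adjusted p = 0.727 by edgeR). Sgk1, a kinase downstream of PI3K, averaged 59.3 ± 37.8 and 201 ± 143 CPM, and Tfcp2l1, a naive factor, 447 ± 127 and 881 ± 363 CPM. Pim3, a survival kinase, went the other way at 25.4 ± 23.9 and 3.44 ± 2.95 CPM.

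Feedback inhibitors of cytokine signalling (SOCS, PIAS and phosphatases) had 11 of 14 members lower, a median of -0.40 (0.18 in female embryos alone), and none past an unadjusted p of 0.05. Socs3 was read at 0.239, 1.63, 4.18, 1.78 and 0.0327 CPM in MUT and 19.4, 21.3, 6.54, 0.00916 and 0.466 CPM in WT. The 3 male WT embryos were high and both female WT embryos were as low as MUT, and the log2 difference of -2.59 (SE 1.64) became 1.41 with sex as a covariate and 2.66 in female embryos alone. Of 8 tested ligands, receptors and JAK kinases 4 were lower (median -0.23, and -0.66 to 0.15 without an embryo). Lifr, the LIF receptor, averaged 33.0 ± 4.57 CPM in MUT and 23.1 ± 20.7 CPM in WT (log2 difference 0.52, and -0.033 with limma-trend), and the ligand Osm was at or near 0 in every embryo but WT 20 (4.42 CPM), WT 21 (28 CPM) and MUT 18 (1.10 CPM). Of the 6 tested STAT genes 4 were lower, and their median of -0.61 became 1.14 without WT 16. Stat3, the gene named in the genotype, is counted among these and was the only member past an unadjusted p of 0.05. Stat5a averaged 21.9 ± 37.3 and 2.94 ± 4.28 CPM, the MUT mean resting on MUT 24 at 87.9 CPM. Interferon-stimulated genes were lower for 4 of 9 (median 0.07).

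Naive pluripotency and epiblast markers were lower in MUT for 18 of 25 genes (median -0.67, and -0.35 without MUT 10 or -0.41 without WT 22), with 7 lower and 0 higher at an unadjusted p under 0.05. Of the 11 members at or above 100 CPM, 10 were lower, beside 69.2% of all genes at that level. Nanog, the epiblast specifier, was read at 194, 88.3, 208, 169 and 110 CPM in MUT embryos 2, 10, 18, 23 and 24 and at 791, 372, 483, 194 and 552 CPM in WT embryos 13, 16, 20, 21 and 22. Only WT 21 lay within the MUT range. The log2 difference was -1.64 (SE 0.42, adjusted p = 0.594 by edgeR). Spp1, the secreted protein osteopontin, averaged 1038 ± 885 and 4615 ± 3745 CPM. Fgf4 averaged 10.2 ± 11.6 and 51.0 ± 39.3 CPM, MUT 10 being high among the MUT embryos at 30.6 CPM. Of the 8 epiblast and naive markers summed above, Klf2 and Esrrb went the other way, with log2 differences of 0.53 and 0.18. The rest of those 8 were lower.

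All 5 tested Dppa genes were lower (median -0.79), 3 of them at an unadjusted p under 0.05. Of these 5, 4 lie at or above 100 CPM, where 69.2% of all genes were lower. The remaining member is Dppa1, named above by the rule for being lower. Dppa2, a chromatin factor that acts as a dimer with Dppa4, was read at 628, 317, 528, 490 and 275 CPM in MUT and 649, 916, 726, 839 and 740 CPM in WT, so that MUT 2 came close to the lowest WT embryo. Dppa4 averaged 161 ± 66.1 and 312 ± 93.0 CPM. Genes of the Nodal pathway were lower for 11 of 16 (median -0.62, -0.39 without MUT 2, -0.33 without WT 20 and 0.09 in female embryos alone), with Tdgf1 first. Lefty2, a secreted Nodal inhibitor, was read at 4.23, 4.07, 3.54, 0.119 and 32.4 CPM in MUT and 105, 0.145, 86.3, 168 and 105 CPM in WT. WT 16 was as low as the MUT embryos while the other WT embryos were high. The log2 difference was -3.38, and 0.96 in cells with the title letter H alone. Gdf3, a Nodal-related ligand, averaged 112 ± 65.5 and 259 ± 74.7 CPM.

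Other signalling pathways were mixed. FGF ligands, receptors and ERK response genes were lower for 11 of 29 (median 0.41, and -0.02 without MUT 10), with 3 lower and 4 higher at an unadjusted p under 0.05. Fgf10 was read at 7.36 to 94.2 CPM in MUT and 116 to 295 CPM in WT, without overlap, while Dusp4, an ERK phosphatase, averaged 52.4 ± 29.0 and 9.57 ± 6 CPM, with MUT 2 at 1.76 CPM. The Wnt list had 11 of 22 lower (median 0.00), the BMP list 7 of 12 (median -0.21) and the Hippo list 4 of 17 (median 0.14). None of these 3 lists had a member past an unadjusted p of 0.05. Tcf7l1, a transcriptional repressor of Wnt targets, averaged 15.8 ± 23.4 and 2.79 ± 2.03 CPM, MUT 24 alone reaching 57.3 CPM.

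Primitive endoderm markers were lower for 9 of 23 genes and higher for 14 (median 0.52, -0.20 without MUT 10 and -0.10 with sex as a covariate), with 3 higher at an unadjusted p under 0.05. Sox17, an endoderm transcription factor, was read at 3.83, 149, 69.5, 18.4 and 106 CPM in MUT embryos 2, 10, 18, 23 and 24 and at 1.31, 0.264, 2.69, 5.12 and 2.97 CPM in WT embryos 13, 16, 20, 21 and 22. MUT 2 fell within the WT range and the other MUT embryos lay above it. On the log2 scale the difference was 4.81 (SE 1.04, adjusted p = 0.435 by edgeR), and 53 of 55 MUT cells and 43 of 64 WT cells held reads. The median over cells was 17.3 CPM in MUT and 0.323 CPM in WT. Within the MUT embryos it ran from 2.95 CPM (MUT 18) to 135 CPM (MUT 10). Among the other endoderm markers summed above, Sox7 and Dab2 went the other way, with log2 differences of -0.48 and -0.96. Gata4, Gata6, Pdgfra and Cubn were higher (1.68, 0.70, 0.21 and 1.35), all with overlapping groups, and Foxa2 was not tested. Basement membrane genes, which endoderm secretes, were higher for 15 of 20 (median 0.63, 0.14 without MUT 10 and 0.24 with sex as a covariate), with 4 higher at an unadjusted p under 0.05. Lamb1, Lamc1, Lama1, Col4a1, Col4a2, Sparc and Serpinh1 are counted both in this list and among the primitive endoderm markers. Lamb1, a laminin chain, was read at 549, 1637, 482, 107 and 611 CPM in MUT and 271, 118, 196, 401 and 142 CPM in WT. MUT 10 was the highest and MUT 23 the lowest of all embryos.

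Col4a2, a collagen IV chain, averaged 68.3 ± 71.1 and 18.4 ± 8.15 CPM, and Plod2, which hydroxylates collagen lysines, 87.6 ± 110 and 14.4 ± 11.4 CPM. Of the 13 basement membrane genes below 100 CPM, 12 were higher in MUT, whereas 4 of the 7 at or above 100 CPM were lower (median -0.04). The endocytic receptors and transport genes of endoderm were higher for 10 of 15 (median 0.94, and 0.09 without MUT 10). Amn, Cubn, Dab2 and Lrp2 of this list are also counted among the primitive endoderm markers. Rab11a, of recycling endosomes, averaged 498 ± 280 and 154 ± 116 CPM, and Apoe, a lipoprotein, 906 ± 705 and 273 ± 284 CPM. The zinc transporter Slc39a4 of the same list went the other way, at 124 ± 42.9 CPM in MUT and 232 ± 54.2 CPM in WT. These counts stand beside the endoderm marker sums above, in which MUT 10 and MUT 24 are the highest embryos.

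Trophectoderm markers were lower for 8 of 14 (median -0.47, and 0.09 without WT 16). Ptges, a prostaglandin E synthase, was read at 1.36 to 45.2 CPM in MUT and 63.1 to 234 CPM in WT. The water channel Aqp3 averaged 63.4 ± 47.9 and 175 ± 101 CPM. Of the trophectoderm markers summed above, Eomes, Gata3 and Krt18 went the other way, with log2 differences of 1.98, 1.07 and 0.38. Krt8 was lower (-0.57), and the groups overlapped for each of these. Among tight junction and adhesion genes 19 of 33 were lower (median -0.08), and Cldn6, a claudin, was read at 3.35, 2.27, 0.806, 0 and 2.22 CPM in MUT and 0.990, 52.1, 22.6, 19 and 73.8 CPM in WT. WT 13 was as low as MUT for that gene. The formative and primed list had 3 of 7 lower (median 0.06), the oocyte list 4 of 7 (median -0.19), and of the zygotic genome activation list 2 genes were tested, 1 of them lower.

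**Figure D4:**
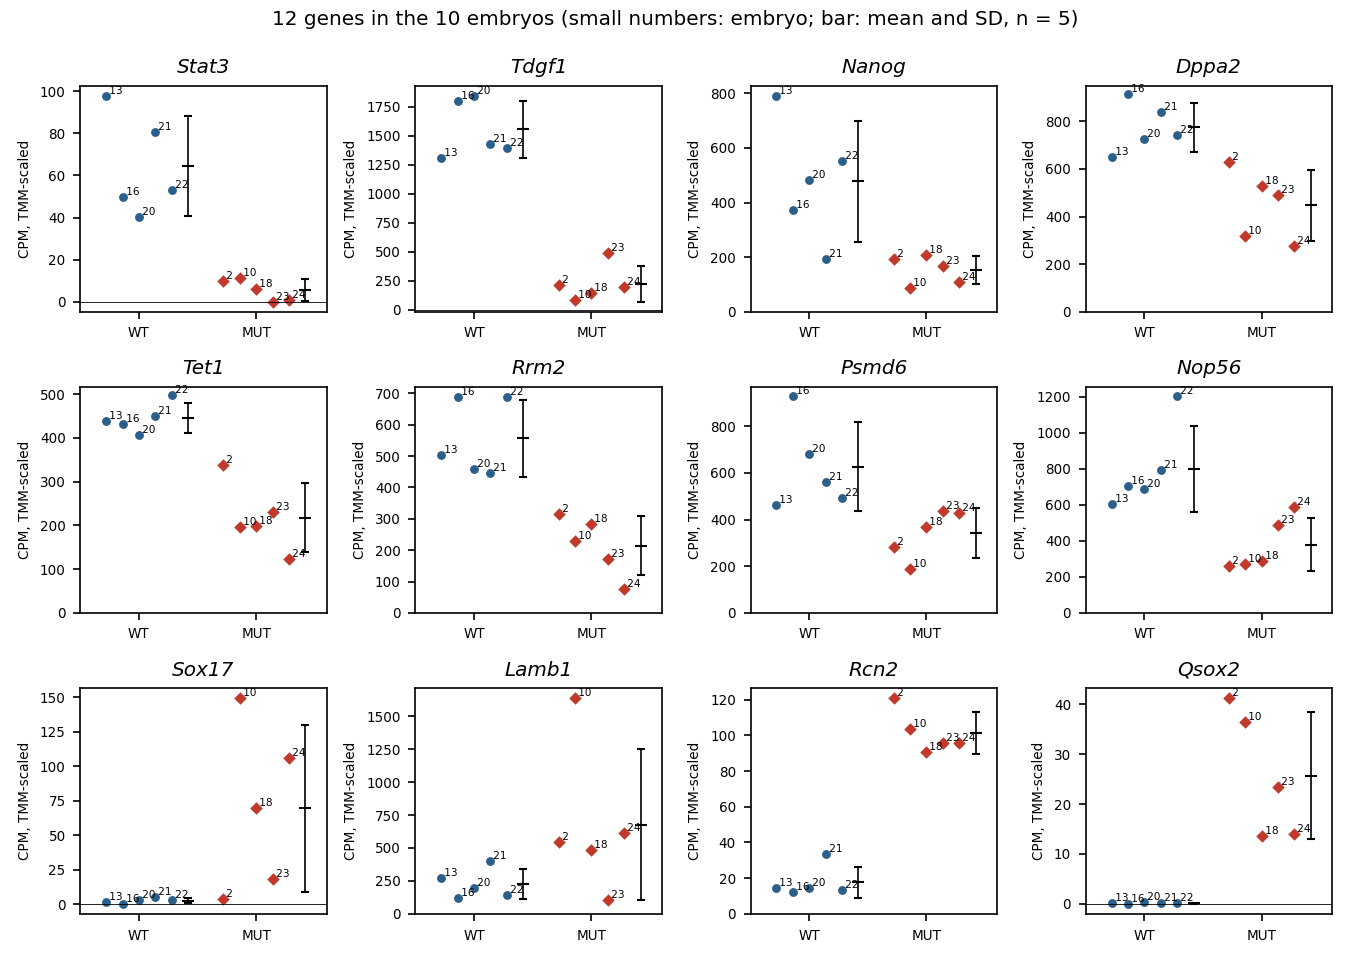
CPM of 12 genes in each of the 10 E3.5 embryos (points), with the mean and SD of each genotype. Stat3, Tdgf1, Dppa2, Tet1, Rrm2, Psmd6 and Nop56 show separate groups with WT higher, and Rcn2 and Qsox2 with MUT higher. Sox17 and Lamb1 vary widely among the MUT embryos.

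Among regulators of DNA methylation 9 of 18 were lower (median -0.02). Tet1, which oxidises 5-methylcytosine, was read at 338, 196, 198, 231 and 122 CPM in MUT embryos 2, 10, 18, 23 and 24 and 438, 433, 406, 451 and 497 CPM in WT. The WT embryos were even, and all MUT embryos lay below them. For Tet1 the log2 difference was -1.04 (SE 0.34, adjusted p = 0.727 by edgeR). The de novo methyltransferase Dnmt3b averaged 107 ± 67.6 and 43.9 ± 7.31 CPM, with MUT 10, 18 and 24 high, MUT 2 within the WT range and MUT 23 below it, and the glycosylase Mbd4 averaged 8.23 ± 8.39 and 32.3 ± 12.7 CPM. Pramel6, a naive-state factor that promotes hypomethylation, was read at 84.8 to 226 CPM in MUT and 253 to 307 CPM in WT without overlap. In its list of Pramel genes and Uhrf1, 5 of 9 were lower (median -0.23).

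Imprinted genes were higher in MUT for 32 of 42 tested (median 0.47), and 30 of the 37 members below 100 CPM were higher, beside 5295 of 10483 for all genes at that level. A single member was lower and a single one higher at an unadjusted p under 0.05, near the background shares. Gnas, a G protein alpha subunit, averaged 16.5 ± 14.4 and 3.59 ± 1.44 CPM, and Grb10, a growth inhibitor, 3.08 ± 3.41 and 15.1 ± 7.48 CPM (log2 difference -2.29, and 0.32 in cells with the title letter H). The median of the list stayed above 0 in all 21 alternative fits. Of the factors that protect imprints 11 of 17 were lower (median -0.33), and of histone demethylases 11 of 23 (median 0.04).

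In metabolism, the TCA cycle list had 21 of 26 genes lower (median -0.34), all 21 among the 23 members at or above 100 CPM. Sucla2, a subunit of succinyl-CoA synthetase, was read at 330, 308, 325, 287 and 295 CPM in MUT and 791, 416, 591, 540 and 1112 CPM in WT. The MUT embryos were nearly equal and below every WT embryo. For Sucla2 the log2 difference was -1.16 (SE 0.33, adjusted p = 0.727 by edgeR). Idh3a averaged 135 ± 40.6 and 230 ± 28.8 CPM. Among genes of alpha-ketoglutarate metabolism 12 of 22 were lower (median -0.08). The aminotransferase Got1 was read at 49.5 to 130 CPM in MUT and 198 to 229 CPM in WT, whereas the glutaminase Gls2 averaged 38.2 ± 28.6 and 7.33 ± 7.95 CPM.

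Of the 13 mitochondrial mRNAs, 9 were lower (median -0.25, and -0.007 without MUT 10). The complex IV subunit mt-Co1 was read at 9687 to 15715 CPM in MUT and 16591 to 19542 CPM in WT, and mt-Cytb averaged 5307 ± 2494 and 11496 ± 4726 CPM. Nuclear subunits of complex I were lower for 23 of 36 (median -0.08) and those of complexes II to V for 17 of 41 (median 0.04). At or above 100 CPM these counts were 22 of 32 and 16 of 38. Within complex III the subunits diverged. Uqcrc2 was read at 229 to 364 CPM in MUT and 367 to 564 CPM in WT, while Cyc1 averaged 437 ± 149 and 191 ± 163 CPM and Uqcrfs1 297 ± 209 and 94.7 ± 89.3 CPM.

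Mitochondrial ribosomal proteins were lower for 51 of 78 (26 of 35 at or above 100 CPM, median -0.20, and 0.075 without MUT 10), with 4 lower and 4 higher at an unadjusted p under 0.05. Mrps9 was read at 9.37 to 66.5 CPM in MUT and 87.9 to 162 CPM in WT and Mrpl39 at 65.4 to 125 and 158 to 247 CPM, both separate. Mrps30 was separate in the other direction, at 29.0 to 75.1 CPM in MUT and 1.32 to 20.2 CPM in WT. Factors of mitochondrial transcription and biogenesis were lower for 15 of 25 (median -0.37), with Mterf3 at 4.16 to 35.8 and 45.5 to 71.4 CPM and the import receptor Tomm20 higher at 301 ± 89.0 and 98.8 ± 80.6 CPM.

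In other metabolic lists the genes lower in MUT were 14 of 24 for glycolysis (median -0.09), 16 of 26 for fatty acid metabolism (median -0.08), 14 of 20 for threonine and one-carbon metabolism (11 of 12 at or above 100 CPM, median -0.21, and -0.05 without WT 21) and 21 of 35 for glutathione and redox enzymes (median -0.13). Acadm, of medium-chain fatty acid oxidation, was read at 64.2 to 116 CPM in MUT and 167 to 300.3 CPM in WT. The glucose transporter Slc2a8 averaged 57.2 ± 24.3 and 16.7 ± 17.1 CPM and the lactate carrier Slc16a1 71.4 ± 68.9 and 19.4 ± 12.4 CPM (log2 difference 1.88, and -0.59 in cells with the title letter H). Cholesterol synthesis and uptake, a list without any member at or above 100 CPM, was lower for 16 of 25 (median -0.36, and -0.21 without WT 16), with Msmo1 at 2.35 to 25.9 CPM in MUT and 19.2 to 73.1 CPM in WT and Sqle at 12.4 ± 14.8 and 45.5 ± 22.2 CPM. In polyamine metabolism, 7 of 12 genes were lower (median -0.13). The catabolic enzyme Sat1 averaged 487 ± 452 and 1324 ± 865 CPM and the spermidine synthase Srm 59.8 ± 47.0 and 16.9 ± 8.30 CPM.

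Stress lists had 11 of 18 genes lower for the integrated stress response (median -0.32, 0.068 without WT 21 and -0.006 with limma-trend), 19 of 28 for chaperones (17 of 21 at or above 100 CPM, median -0.35, and 0.009 in female embryos alone) and 15 of 28 for p53 targets and death regulators (median -0.07). Hspa5, the chaperone of the endoplasmic reticulum, averaged 404 ± 170 and 739 ± 340 CPM, and Hspa4, an exchange factor for HSP70, 275 ± 251 and 79.2 ± 39.9 CPM. Trp53 was read at 67.4, 68.1, 98.3, 151 and 72.1 CPM in MUT and 260, 263, 219, 94.9 and 158 CPM in WT. Only WT 21 overlapped with MUT, and the log2 difference was -1.12 (SE 0.41). Aen, a nuclease induced by p53, averaged 45.7 ± 24.2 and 108 ± 52.7 CPM.

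Growth and division genes were lower in most lists. S-phase genes were lower for 24 of 35 (median -0.33, and -0.21 without MUT 24), of which 17 of 21 at or above 100 CPM, and G2 and M phase genes for 26 of 34 (median -0.46). In the G2 and M list 13 of 18 genes at or above 100 CPM were lower, close to the 69.2% of all genes at that level. Below 100 CPM 13 of its 16 genes were lower. Rrm2, a subunit of ribonucleotide reductase, was read at 314, 229, 282, 170 and 75.4 CPM in MUT and 502, 689, 459, 444 and 688 CPM in WT. All MUT embryos lay below all WT embryos (log2 difference -1.38, SE 0.39, adjusted p = 0.727 by edgeR). Cdc45, a replicative helicase factor, was read at 50.8 to 107 CPM in MUT and 107 to 242 CPM in WT and Mad2l1, a spindle checkpoint protein, averaged 81.8 ± 49.5 and 218 ± 76.1 CPM. The origin licensing factor Cdt1 stood against the list, at 117 ± 53.2 and 30.9 ± 27.3 CPM.

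Ribosome biogenesis genes were lower for 36 of 50 (median -0.32), with 8 lower and 0 higher at an unadjusted p under 0.05. At or above 100 CPM 26 of 29 members were lower and below it 10 of 21. Nop56, of the box C/D particles, was read at 263, 270, 288, 489 and 587 CPM in MUT and 603, 704, 686, 795 and 1205 CPM in WT, without overlap. Its log2 difference was -1.07 (SE 0.35, adjusted p = 0.727 by edgeR). Nop16 was read at 86.0 to 176 CPM and 194 to 404 CPM, and Brix1 averaged 276 ± 146 and 741 ± 512 CPM. The cytoplasmic ribosomal proteins themselves were evenly divided, with 43 of 85 lower (43 of 84 at or above 100 CPM, median -0.00). Factors of RNA decay around Lin28 and Trim71 were lower for 12 of 19 (median -0.32). That median was -0.047 without MUT 23 and lay above 0 in 5 alternatives, among them limma-trend (0.09), female embryos alone (0.52) and cells with the title letter H (0.22).

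Proteasome subunits were lower for 39 of 46 (median -0.43, from -0.65 without MUT 23 to -0.20 without MUT 10), with 5 lower and 1 higher at an unadjusted p under 0.05. Of the 36 members at or above 100 CPM, 33 were lower. Psmd6, of the regulatory particle, was read at 280, 187, 369, 438 and 429 CPM in MUT and 463, 930, 682, 559 and 494 CPM in WT, the groups being separate by a small margin. Its log2 difference was -0.88 (SE 0.35, adjusted p = 0.728 by edgeR). Psmc3, an ATPase of the base, averaged 353 ± 163 and 654 ± 212 CPM, and Psmf1, a proteasome inhibitor, was read at 18.7 to 60.8 CPM in MUT and 38.5 to 168 CPM in WT. The medians of the proteasome, ribosome biogenesis, S-phase, G2 and M, TCA cycle, naive, Dppa and STAT3 target lists kept the same sign in the 10 fits without an embryo and in the other 11 alternatives. Some of them shrank towards 0. In embryos with at least 10 cells the median was -0.07 for G2 and M genes and -0.10 for S-phase genes. In female embryos alone it was -0.09 for the TCA cycle, -0.11 for S-phase genes, -0.12 for ribosome biogenesis and -0.32 for STAT3 targets. Of the 46 lists followed in this way, the median of 22 crossed 0 when some single embryo was left out, that of 29 crossed it under some other alternative, and that of 14 did neither. In cells with the title letter H alone (1 to 6 cells per embryo), edgeR called 0 of 8566 genes (338 at an unadjusted p under 0.05), and the medians were -0.52 for STAT3 targets, -0.93 for naive markers, -0.49 for proteasome subunits and 1.49 for primitive endoderm markers. With RLE scaling, the medians of the DNA methylation, complex I, alpha-ketoglutarate, p53, cytoplasmic ribosomal protein and tight junction lists, all below 0 in the main fit, lay above 0.

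**Figure D5:**
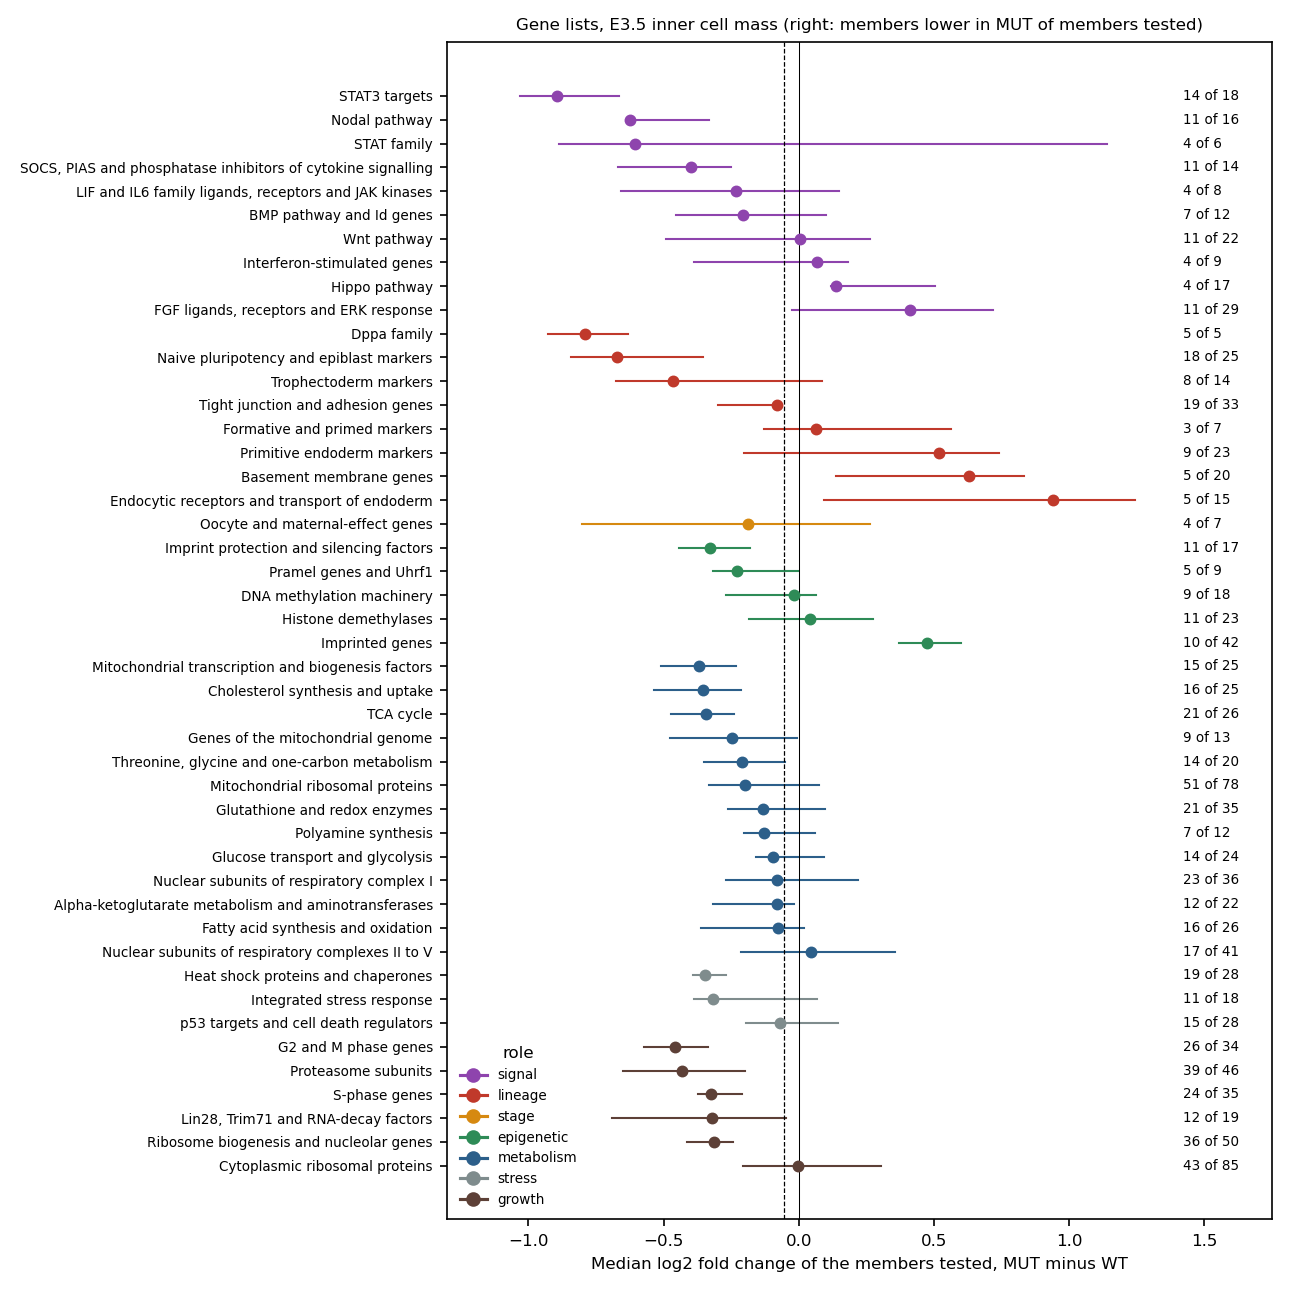
Median log2 difference between MUT and WT of each gene list (points), with the range over the 10 fits that leave out an embryo (bars) and the number of genes lower of those tested; the dashed line is the median of all genes, -0.05. STAT3 targets (-0.89), the Dppa genes (-0.79) and the naive markers (-0.67) lie on the side lower in MUT, and the basement membrane list (0.63) lies on the other.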

How the data were processed

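The deposited table holds 1 column per single cell with raw read counts per gene, which the authors made with STAR and HTSeq on mm10, per the submitters' processing notes. The sources used here give no version, strand setting, library protocol or treatment of PCR duplicates. Of 49671 rows, 49412 matched GENCODE vM21, and the other 259 held 0.0101% of counts. All columns were mapped to a sample (0 unused), and no pair of cells was identical.

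Counts were summed by embryo, the first number after the genotype in the title. What that number and the title letter stand for is not stated. No cell was removed and no doublet caller was run. Genes passing filterByExpr (minimum count 10) were tested with edgeR 4.0.16 (TMM, robust quasi-likelihood fit, R 4.3.3) and Benjamini-Hochberg adjustment, threshold 0.05. The SE is the log2 difference divided by the square root of F. Alternatives used DESeq2 1.42.0, limma 3.58.1, other scaling, no filter, subsets of cells or embryos, sex as a covariate and leaving out each embryo. Quality values were compared by an exact permutation test over 252 arrangements. The edgeR script was tested on simulated data.

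Named genes met an unadjusted p under 0.05, no overlap of embryos, a mean of at least 20 CPM in 1 group and 1 direction in all fits without an embryo; within each list, up to 4 members with the smallest p were eligible. Of the genes the rule chose, 2 are not reported here. The members and the 48 gene lists were chosen with earlier results of these data known. P-values measure the spread between embryos, whose litters are not given.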

Additional observations from a re-analysis of the deposited data

Results flagged for a closer look

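In 26 of 206 groups of 5 embryos examined (values of named genes and quality values), 1 embryo stood apart from the other 4 by Dixon's criterion. Normally distributed values meet it by chance in about 1 in 20 groups. The gene values were CPM without log transformation, so that rate may not hold for them and the 26 are a description. Among the genes lower in MUT, high WT embryos were WT 20 for Cpe (178 CPM), WT 22 for Tmed9 (268 CPM) and Usp25 (257 CPM) and WT 16 for Gemin6 (421 CPM). Dppa1 stood apart in MUT 23 (3.21 CPM). Among the genes higher in MUT, Imp3 was high in MUT 23 (249 CPM), Rcn2 in WT 21 (33.3 CPM) and Rab5if in WT 16 (13.5 CPM).

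MUT 24 stood apart for Stat5a (87.9 CPM), Lefty2 (32.4 CPM), Gls2 (87.1 CPM) and Tcf7l1 (57.3 CPM). MUT 10 did so for Fgf4 (30.6 CPM) and Grb10 (9.06 CPM), MUT 18 for Osm (1.10 CPM), MUT 23 for Uqcrfs1 (663 CPM) and MUT 2, on the low side, for Dusp4 (1.76 CPM). In WT, the embryos apart were WT 21 for Osm (28 CPM), Stat5a (10.5 CPM) and Sqle (84.6 CPM), WT 22 for Ptges (234 CPM) and Brix1 (1640 CPM), WT 20 for Acadm (300.3 CPM), WT 13 for Cdt1 (78.1 CPM) and WT 16 for Psmc3 (1022 CPM). The 50 most abundant genes took 40.4% of counts in the median cell of WT 13. What set these embryos apart was not tested.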

How the results depend on the processing

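No paired analysis was possible because the MUT and WT embryos of the E3.5 ICM share no numbers. The count of genes called was 0 by edgeR and moved to 3 without the low-count filter (Tdgf1, Cpe, Qsox2), 2 with limma-trend (Tdgf1, Ly6a), 2 with limma-voom and embryo weights (Tdgf1, Qsox2) and 1 without shallow cells (Qsox2). It was 1 (Qsox2) without the cells that hold reads of both sexes, an alternative chosen after seeing the data. Leaving out an embryo gave 0 to 1 (Tdgf1, without MUT 23). DESeq2 called 505 of 21381 genes (142 lower, 363 higher), 216 of them among the genes that edgeR tested; the cause was not tested. For the interactions, DESeq2 called 621 (EPI) and 593 (PrE), the fit without a filter 4 (PrE), and leaving out an embryo gave 0 to 1 in PrE (Gm12790 without WT 2, Ly6g6e without WT 3).

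The difference in genes detected per cell (69.2) became -753 on embryo sums and ran from -213.625 to 318.25 without an embryo; the cause was not tested. Of 2052 alternative values of the 98 genes named, 2000 kept direction and side of the threshold, 46 passed it and 6 reversed. Those were Lefty2 (0.96), Grb10 (0.32) and Slc16a1 (-0.59) in cells with the letter H, Socs3 (1.41 with sex as a covariate, 2.66 in females) and Lifr (-0.033, limma-trend); the cause was not tested. The median of all genes moved from -0.05 to 0.11 with limma-trend and 0.03 with RLE scaling. Depth was lowest in MUT 23, a sum of 4 cells and 8117787 counts.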
